A study of Mus musculus with 8 samples.

Results

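The 10 genes described here encode the mouse MHC class II antigen presentation machinery, and they were taken by name from the 24112 genes listed for each library. They are the chains of the classical molecules (H2-Aa, H2-Ab1 and H2-Eb1), those of the peptide-loading molecule DM (H2-DMa, H2-DMb1 and H2-DMb2) and of its partner DO (H2-Oa and H2-Ob), the invariant chain (Cd74) and the transactivator (Ciita). All 10 have a row in the deposited tables. The RNA came from LSK cells (negative for lineage markers, positive for Sca1 and Kit), which are blood stem cells and their earliest descendants in the marrow, sorted from transplanted C57BL/6 mice. The KO group (4 libraries) received marrow that lacked Traf6 and carried Cre under the Vav promoter, which is active throughout the blood lineages. The WT group (4 libraries) received marrow with the same Cre and an intact Traf6. The transplantation and Vav-Cre are thus common to the groups. The labels do not say how cells of the host were set apart from donor cells, how many mice gave a library, or whether each library had its own mouse. The p-values therefore rest on the spread among these libraries, and that spread may be technical.

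A classical class II molecule is an alpha and a beta chain that present peptides to CD4 T cells. The invariant chain escorts the pair out of the endoplasmic reticulum and fills its groove; in the endosome DM exchanges the remnant of the invariant chain for a peptide, and DO restrains DM. CIITA does not bind DNA itself: it docks on factors that sit on the X and Y boxes of class II promoters and switches these genes on as a set. Dendritic cells, B cells and activated macrophages are the textbook expressers. C57BL/6 mice lack a functional H2-Ea gene, so H2-Eb1 has no classical partner in this strain.

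The promoters of these genes are printed first because the shared boxes are the sequence feature that CIITA-dependent genes have in common. RefSeq promoter windows (build GRCm38.p6, 250 bases before to 50 after a transcript start) were at hand for 7 of the 10 genes, H2-Aa, H2-Eb1, H2-DMa, H2-DMb1, H2-DMb2, H2-Oa and H2-Ob. The lines give positions -110 to -31 relative to the start, 5′ to 3′, with the Y box letters TGATTGG in capitals and, where it lies 20 to 40 bases before them from start to start, the X box core GNAAC in capitals as well.
H2-Aa (chr17:34287854-34287933, - strand): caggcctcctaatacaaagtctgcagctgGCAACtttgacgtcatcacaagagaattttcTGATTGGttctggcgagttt
H2-Eb1 (chr17:34305757-34305836, + strand): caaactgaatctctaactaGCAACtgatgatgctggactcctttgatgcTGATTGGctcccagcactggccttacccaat
H2-DMb1 (chr17:34153081-34153160, + strand): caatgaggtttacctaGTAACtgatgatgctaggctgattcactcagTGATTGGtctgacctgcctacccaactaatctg
H2-DMb2 (chr17:34145139-34145218, + strand): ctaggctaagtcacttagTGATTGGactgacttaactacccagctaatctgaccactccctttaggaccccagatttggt
H2-Oa (chr17:34092269-34092348, + strand): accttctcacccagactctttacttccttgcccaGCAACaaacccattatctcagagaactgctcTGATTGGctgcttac
H2-Ob (chr17:34238795-34238874, + strand): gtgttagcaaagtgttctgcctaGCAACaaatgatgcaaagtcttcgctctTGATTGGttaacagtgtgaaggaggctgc

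The Y box letters were in the windows of 6 of these 7 genes, each time on the strand of transcription and between positions -92 and -45. On either strand, TGATTGG was in 7.82% of all 32851 windows of the same length. The combination of core and Y box was in 5 of the 7 genes, with start-to-start distances of 31, 30, 31, 31 and 28 bases in H2-Aa, H2-Eb1, H2-DMb1, H2-Oa and H2-Ob. It was in 0.569% of all windows, while GNAAC by itself, a short string, was in 84.8%. H2-DMb2, with its Y box at -92, held no core at that distance in the full window. A core there would start upstream of the printed line, which therefore cannot show its absence. Neither of the 2 windows of H2-DMa held the Y box letters. Those windows stand at RefSeq starts of a gene annotated as overlapping Brd2, and any other start of H2-DMa was not examined. Whether H2-DMa has these boxes elsewhere was therefore not tested. Other letter patterns were tried first on the windows of these genes, and the letters and spacing given were chosen with those windows in view, so the shares are a description; a match describes a string and not a bound site.

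**Figure D1:**
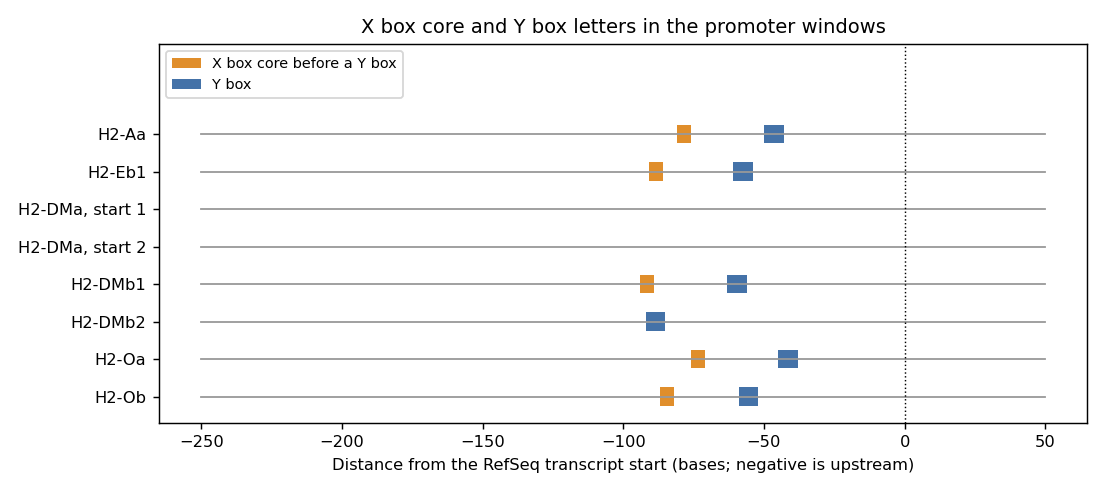
X box core (orange) and Y box (blue) letters in the promoter windows of 7 class II genes, drawn as distance in bases from the RefSeq transcript start (dotted line); H2-DMa has 2 windows. The core lies 28 to 31 bases before the Y box in H2-Aa, H2-Eb1, H2-DMb1, H2-Oa and H2-Ob.

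Levels are the authors' RPKM (read counts scaled to gene length and to the size of the library). Depth, estimated from the steps between low values, was 22.6 to 30.5 megareads in KO and 19.1 to 24.7 megareads in WT libraries. KO3 listed 175 of 3943 genes with a mean above 20 RPKM at 0, KO4 had 61 such genes and WT2 47, where the remaining 5 libraries had 6 to 20. An exact 0 in KO3 or KO4 can therefore be a missing estimate and is written as listed at 0. Lane 5 held KO3 and KO4; lane 4 held KO1, KO2 and all 4 WT libraries. Traf6 itself was at 0.613, 0.818, 0 and 0.00721 RPKM in KO1 to KO4, against 14.9, 3.52, 9.40 and 7.10 RPKM in WT1 to WT4, with no overlap between the groups. The defining receptor of the sort, Kit, was at 50.6 to 113 RPKM in KO and 73.8 to 83.1 RPKM in WT, and Ly6a, which encodes Sca1, was at 6.53 to 10.9 RPKM in KO and 7.31 to 11.8 RPKM in WT.

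Each classical chain was lower in every KO library than in any WT library. H2-Aa, the alpha chain of I-A, had 24.1, 107, 13.6 and 69.8 RPKM in KO1 to KO4, against 202, 268, 402 and 177 RPKM in WT1 to WT4. The highest KO value, in KO2, lay below the lowest WT value, in WT4. The means were 53.6 ± 43.1 RPKM in KO and 262 ± 101 RPKM in WT (SD, n = 4 each), so KO stood at 0.204 times the WT mean. H2-Ab1, its beta partner, had 55.7, 128, 119.9 and 125 RPKM in KO1 to KO4, against 165, 217, 324 and 252 RPKM in WT1 to WT4. KO1 stood apart from the other 3 KO libraries, which lay close to each other, and no KO value reached WT. The means were 107 ± 34.5 RPKM in KO and 239 ± 66.5 RPKM in WT, a KO mean 0.448 times that of WT. H2-Eb1, the I-E beta chain, had 4.32, 20.9, 0 and 31.6 RPKM in KO1 to KO4, against 54.3, 75.3, 107 and 50.5 RPKM in WT1 to WT4. It was listed at 0 in KO3, where 1 read would be worth about 0.0265 RPKM, and the other KO libraries still lay below all WT libraries.

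On the log2(RPKM + 1) scale, which understates differences of low genes, KO minus WT was -2.61 ± 0.59 for H2-Aa, -1.18 ± 0.30 for H2-Ab1 and -3.15 ± 0.96 for H2-Eb1 (SE, limma). Without KO3, which listed H2-Eb1 at 0, these differences were -2.12, -1.26 and -2.16. With all 8 libraries, the limma p-values adjusted over all 11276 genes tested were 0.441, 0.441 and 0.541, so none passed 0.05. That threshold was passed by 0 of the 11276 genes (0%), and by 0 of the 9 class II genes that met the filter of at least 1 RPKM in at least 4 libraries. An unadjusted limma p under 0.05 was reached by 847 genes (7.51%), of which 312 were higher and 535 lower in KO. The lower ones were 4.74% of genes tested, and 5 of the 9 class II genes were among them: the 3 classical chains, Cd74 and H2-Ob. Of the 9 genes 8 had negative log2 differences and 1 a positive one, with a median of -1.07, where 61.0% of all genes tested were negative and the median was -0.14. The 5 genes named had a log2 difference of -1 or lower, as did 10.4% of genes tested. With lane 4 alone, or without KO3, limma called 0.0177% of genes, and with library weights 1.45%, in each case 0 class II genes. In a 2-sided exact permutation over the 70 assignments of libraries each of these 5 had p = 0.0286, the smallest that 4 against 4 can give. Any gene without overlap between the groups gets this p, and 5.92% of genes tested were without overlap, so it restates the separation. In bulk RNA, fewer cells that express a gene and less RNA per cell cannot be told apart.

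**Figure D2:**
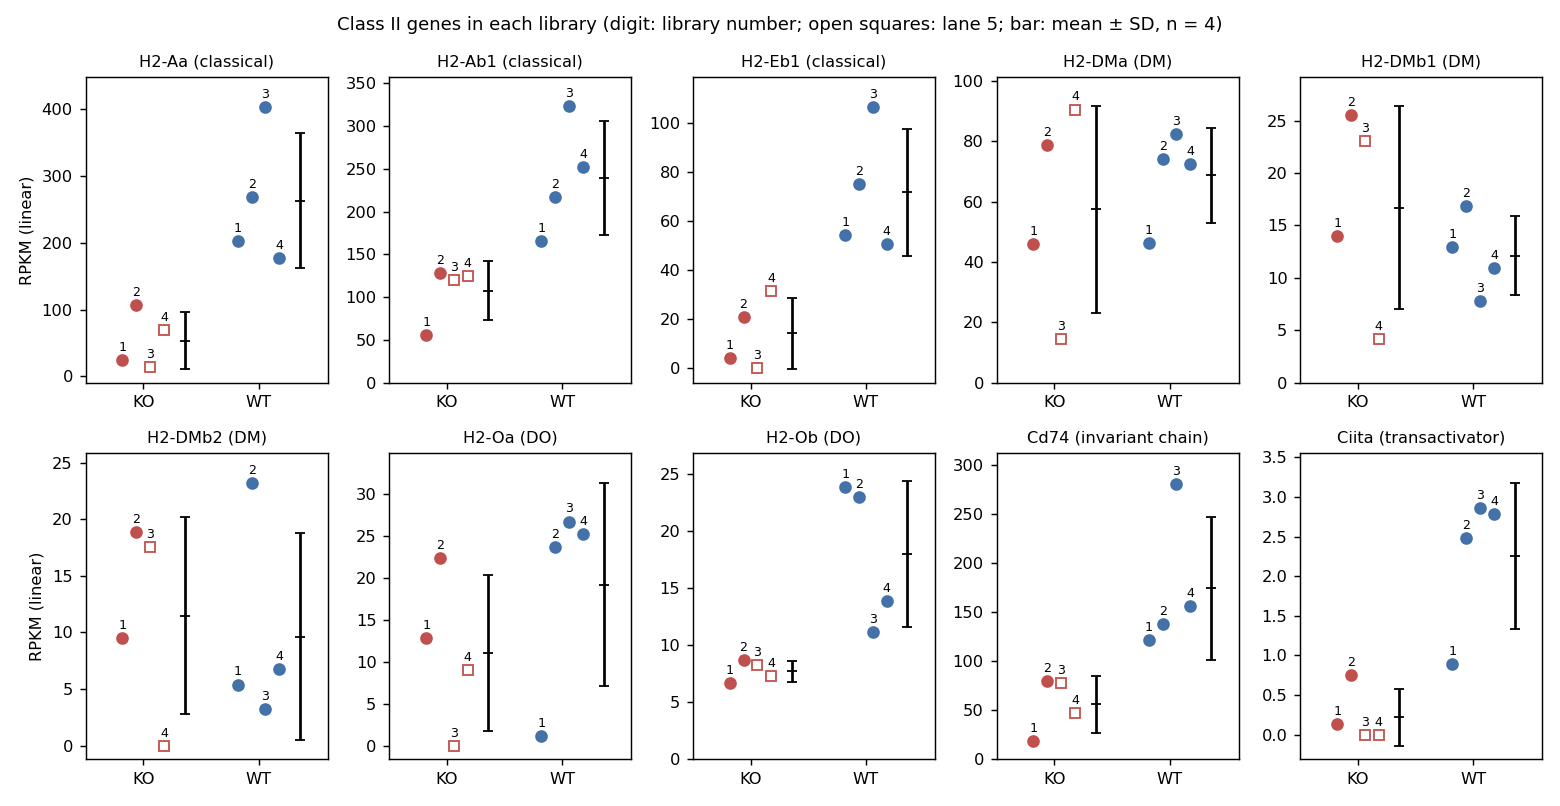
RPKM (linear axis) of the 10 class II genes in each KO and WT library; digits are library numbers, open squares are lane 5, and the black bars are mean ± SD (n = 4). KO and WT do not overlap in the 3 classical chains, Cd74, Ciita and H2-Ob, and they overlap in H2-DMa, H2-DMb1, H2-DMb2 and H2-Oa.

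The invariant chain was lower in KO as well. Cd74 had 18.5, 79.8, 77.6 and 47.2 RPKM in KO1 to KO4, against 121, 138, 281 and 156 RPKM in WT1 to WT4. KO1 was lowest and WT3 highest, as for H2-Ab1, and the groups did not overlap. The means were 55.8 ± 29.0 RPKM in KO and 174 ± 72.7 RPKM in WT (SD, n = 4 each; log2 difference -1.74 ± 0.45, limma adjusted p = 0.441). Relative to H2-Ab1, Cd74 was at a ratio of 0.332, 0.622, 0.647 and 0.377 in KO1 to KO4, against 0.733, 0.635, 0.868 and 0.620 in WT1 to WT4. KO1 and KO4 lay below all other libraries in this ratio, while KO2 and KO3 lay within the WT range. The ratio of H2-Aa to H2-Ab1 was 0.432, 0.834, 0.114 and 0.558 in KO1 to KO4, against 1.22, 1.23, 1.24 and 0.705 in WT1 to WT4. It was above 1 in WT1, WT2 and WT3 and below 1 in all KO libraries, with KO2 overlapping WT4.

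H2-Ab1 had the highest KO mean of the 10 genes, whereas H2-Aa had the highest WT mean. In KO the ranges of neighbours in the order of mean levels (H2-Ab1, H2-DMa, Cd74, H2-Aa, H2-DMb1, H2-Eb1, H2-DMb2, H2-Oa, H2-Ob, Ciita) overlapped in all but the last step, from H2-Ob to Ciita. In WT the order was H2-Aa, H2-Ab1, Cd74, H2-Eb1, H2-DMa, H2-Oa, H2-Ob, H2-DMb1, H2-DMb2 and Ciita. There the ranges parted between Cd74 and H2-Eb1, between H2-DMa and H2-Oa, and between H2-DMb2 and Ciita. Levels of different genes are compared here per kilobase of gene.

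Ciita, the transactivator, was the lowest of the 10 genes in both groups. It had 0.129, 0.754, 0 and 0 RPKM in KO1 to KO4, against 0.893, 2.49, 2.86 and 2.79 RPKM in WT1 to WT4. KO3 and KO4 listed it at 0, and KO2, the highest KO library, lay just below WT1, the lowest WT library. A read of this long gene would be worth about 0.00546 to 0.00870 RPKM. KO2 had the highest Ciita of KO and also the highest H2-Aa, H2-Ab1 and Cd74 of KO, while H2-Eb1 was highest in KO4, which listed Ciita at 0. WT3 had the highest Ciita of WT and also the highest H2-Aa, H2-Ab1, H2-Eb1 and Cd74 of WT. WT4, with nearly as much Ciita, had the lowest H2-Aa and H2-Eb1 of WT, at 177 and 50.5 RPKM. WT1, with the lowest Ciita of WT, had the lowest H2-Ab1 and Cd74 of WT, but more H2-Aa and H2-Eb1 than WT4. Whether these genes vary with Ciita within a group was not tested. Ciita did not meet the filter on low values, because only 3 libraries reached 1 RPKM. Without a filter its log2 difference was -1.40 ± 0.40 (limma adjusted p = 0.671 over 15390 genes). Its 2-sided exact permutation p was 0.0286, the value that any gene without overlap gets. Of all 10 genes, 6 had every KO value below every WT value, namely the 3 classical chains, Cd74, H2-Ob and Ciita. Among all genes above 0 in at least 1 library 3.10% were separated in that direction, and among the 11276 genes tested 3.88%; 2.05% of genes tested were separated the other way, 5.92% in either direction.

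The DM chains overlapped between the genotypes. H2-DMa, the alpha chain of DM, had 45.8, 78.8, 14.6 and 90.5 RPKM in KO1 to KO4, against 46.1, 74.1, 82.4 and 72.5 RPKM in WT1 to WT4. KO2 and KO4 were as high as WT2 to WT4, KO1 was as low as WT1, and KO3 was lowest. The means were 57.4 ± 34.3 RPKM in KO and 68.8 ± 15.7 RPKM in WT (log2 difference -0.51 ± 0.50, limma adjusted p = 0.787), and without KO3 the difference was 0.034. H2-DMb1, a DM beta chain, had 14.0, 25.6, 23.0 and 4.18 RPKM in KO1 to KO4, against 12.9, 16.8, 7.81 and 10.9 RPKM in WT1 to WT4. Its KO libraries spread around WT, with KO2 and KO3 above all WT libraries and KO4 below them. H2-DMb2, the other DM beta chain, had 9.49, 18.8, 17.6 and 0 RPKM in KO1 to KO4, against 5.41, 23.2, 3.20 and 6.79 RPKM in WT1 to WT4. KO4 was low for both beta chains, and WT2 was the highest library for H2-DMb2. Their log2 differences were 0.23 ± 0.51 and -0.098 ± 0.95 (limma adjusted p = 0.912 and 0.980). H2-DMb1 and H2-DMb2 are related in sequence: 27.2% of the 50-base stretches of the H2-DMb1 transcript recur in H2-DMb2, and the counting of such reads is not given in the sources used here, so the split between these genes is uncertain. Their summed level was 23.5, 44.4, 40.6 and 4.18 RPKM in KO1 to KO4, against 18.3, 40.0, 11.0 and 17.7 RPKM in WT1 to WT4. On leaving out KO4 the log2 difference of H2-DMb2 was 0.89, and on leaving out KO2 that of H2-DMb1 was -0.044. H2-DMa overlaps Brd2, which was at 30.5 to 46.1 RPKM in KO and 37.4 to 49.1 RPKM in WT. Of the others, H2-Oa overlaps BC051537, Cd74 overlaps Mir5107, and Ciita overlaps Dexi, and whether counting used the strand is not stated.

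Of the DO chains, H2-Ob was without overlap and H2-Oa was not. H2-Ob, the beta chain, had 6.64, 8.65, 8.21 and 7.24 RPKM in KO1 to KO4, against 23.9, 23.0, 11.2 and 13.9 RPKM in WT1 to WT4. The 4 KO libraries were tightly grouped below WT (7.69 ± 0.913 RPKM in KO and 17.99 ± 6.42 RPKM in WT; SD, n = 4 each; log2 difference -1.07 ± 0.33, limma adjusted p = 0.532). H2-Oa, the alpha chain, had 12.8, 22.4, 0 and 9.03 RPKM in KO1 to KO4, against 1.16, 23.7, 26.7 and 25.2 RPKM in WT1 to WT4. WT1 was far below the other WT libraries and KO2 was close to them, so the groups overlapped. Its log2 difference was -0.90 ± 1.12 (limma adjusted p = 0.83). In lane 4 alone the difference of H2-Oa was 0.36 and that of H2-Ob was -1.08. With KO1 and KO2 against the 4 WT libraries, all of lane 4, the same 6 of the 10 genes were without overlap and lower in KO; so were 10.2% of all genes above 0 in at least 1 library. There the log2 differences were -2.27 for H2-Aa, -1.45 for H2-Ab1, -2.69 for H2-Eb1 and -2.06 for Cd74.

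**Figure D3:**
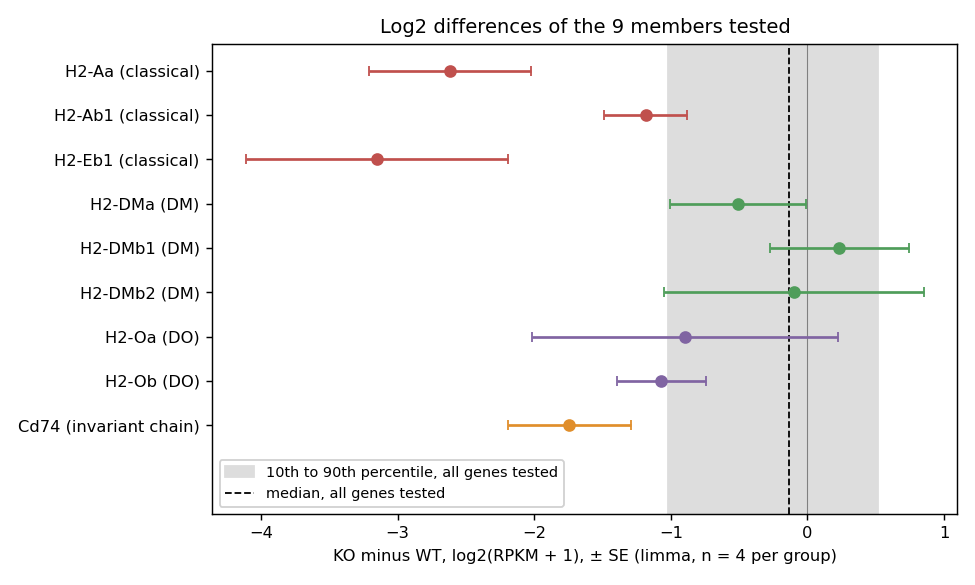
KO minus WT log2(RPKM + 1) ± SE (limma, n = 4 per group) of the 9 class II genes tested; the grey band is the 10th to 90th percentile of all 11276 genes tested (-1.02 to 0.52) and the dashed line their median (-0.14). The classical chains, Cd74 and H2-Ob lie at -1.07 or lower, while the DM chains and H2-Oa lie inside the band.

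Whether the classical chains differed between the genotypes by more than the DM and DO chains was tested within libraries. A scaling shared by the genes of a library largely cancels there for high genes. For low genes such as H2-Oa it cancels less, because 1 is added to each RPKM. The 6 pairs set alpha against alpha or beta against beta chains of different molecules. Within each pair the log2(RPKM + 1) value of the second was subtracted from that of the first. The result was compared between genotypes with a 2-sided exact permutation, adjusted over the 6 pairs. H2-Aa minus H2-DMa was -0.90, 0.44, -0.089 and -0.37 in KO1 to KO4, against 2.11, 1.84, 2.27 and 1.28 in WT1 to WT4. H2-Aa thus lay about level with H2-DMa in KO and well above it in WT, with no overlap. The genotypes differed by -2.11 (p = 0.0286, the smallest possible; adjusted p = 0.171, exact permutation), and by -2.33 to -1.88 when each library was left out in turn. H2-Ab1 minus H2-DMb1 was 1.92, 2.28, 2.33 and 4.60 in KO1 to KO4, against 3.58, 3.61, 5.20 and 4.40 in WT1 to WT4. KO4, where H2-DMb1 was low, lay among WT, and the other 3 KO libraries lay below all WT libraries (difference -1.42, exact permutation p = 0.114, adjusted 0.229; -2.02 without KO4).

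DM against DO gave H2-DMb1 minus H2-Ob values of 0.97, 1.46, 1.38 and -0.67 in KO1 to KO4, against -0.84, -0.43, -0.47 and -0.32 in WT1 to WT4. H2-DMb1 was above H2-Ob in 3 of 4 KO libraries and below it in KO4 and in all WT libraries (difference 1.30, exact permutation p = 0.114, adjusted 0.229). For H2-Aa minus H2-Oa the genotypes differed by -1.72 (exact permutation p = 0.2, adjusted 0.300), with KO and WT overlapping. Without WT1, where H2-Oa was low, the difference was -0.92, with a pseudocount of 0.1 it was -1.08, and in lane 4 alone -2.62. H2-Ab1 minus H2-Ob averaged 3.57 ± 0.46 in KO and 3.69 ± 0.90 in WT (SD, n = 4 each; exact permutation p = 0.800). The sign of the difference between the genotypes, -0.12, changed when KO1, WT3 or WT4 was left out. H2-DMa minus H2-Oa gave 0.39 (exact permutation p = 0.743), and its sign changed without KO3. None of the 6 pairs passed an adjusted p of 0.05, which a lone pair cannot reach here even at the smallest p that 70 assignments give.

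**Figure D4:**
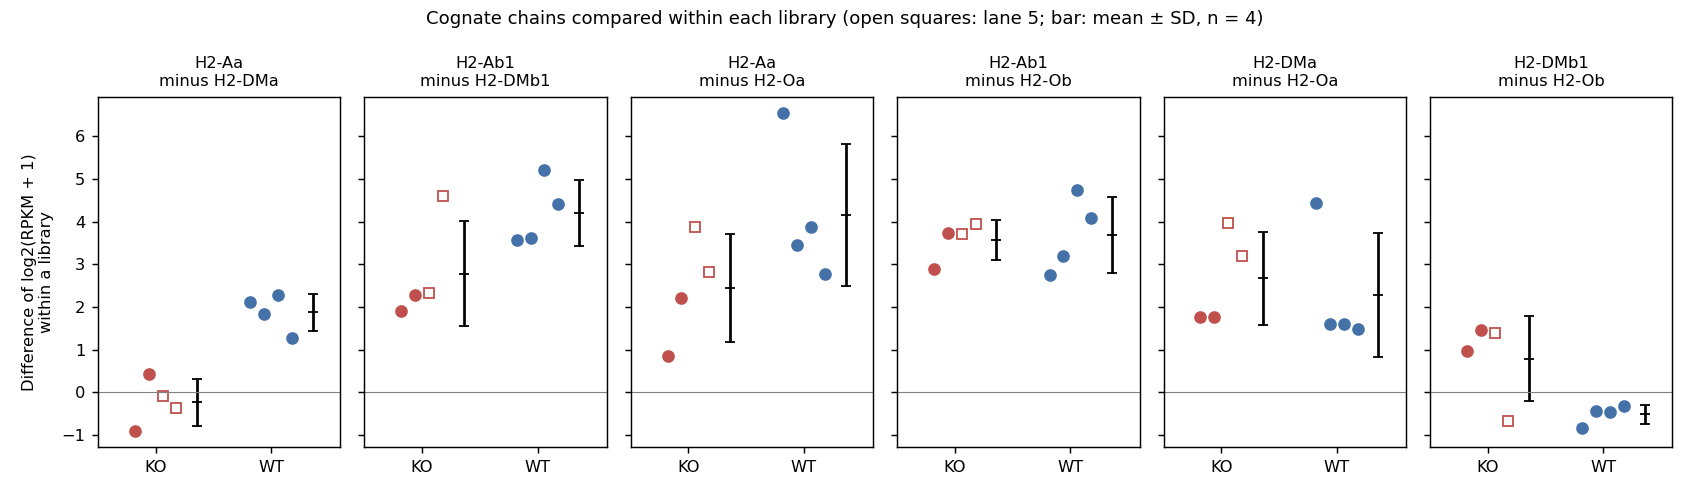
Difference of log2(RPKM + 1) between class II chains within each KO and WT library. The heading's word cognate stands for alpha with alpha or beta with beta chains of different molecules. Open squares are lane 5 and black bars are mean ± SD (n = 4). Of the 6 pairs, H2-Aa minus H2-DMa is the one without overlap, with KO between -0.90 and 0.44 and WT between 1.28 and 2.27.

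The 3 classical chains summed to 84.1, 256, 133 and 226 RPKM in KO1 to KO4, against 421, 561, 833 and 479.5 RPKM in WT1 to WT4. The 3 DM chains summed to 69.3, 123, 55.2 and 94.7 RPKM in KO1 to KO4, against 64.4, 114, 93.4 and 90.3 RPKM in WT1 to WT4. The classical sum was lower in every KO library than in any WT library, and the DM sums overlapped. DM chains made up 40.1%, 30.0%, 28.0% and 28.1% in KO1 to KO4, against 12.6%, 15.8%, 9.69% and 14.8% in WT1 to WT4 of the summed RPKM of the 8 chain genes. Every KO library lay above every WT library in this share, with KO1 highest and WT3 lowest. DO chains made up 4.17% to 11.2% in KO and 3.93% to 6.48% in WT. These sums and shares are given as a description, without a test, and were chosen after the values of the genes had been seen.

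**Figure D5:**
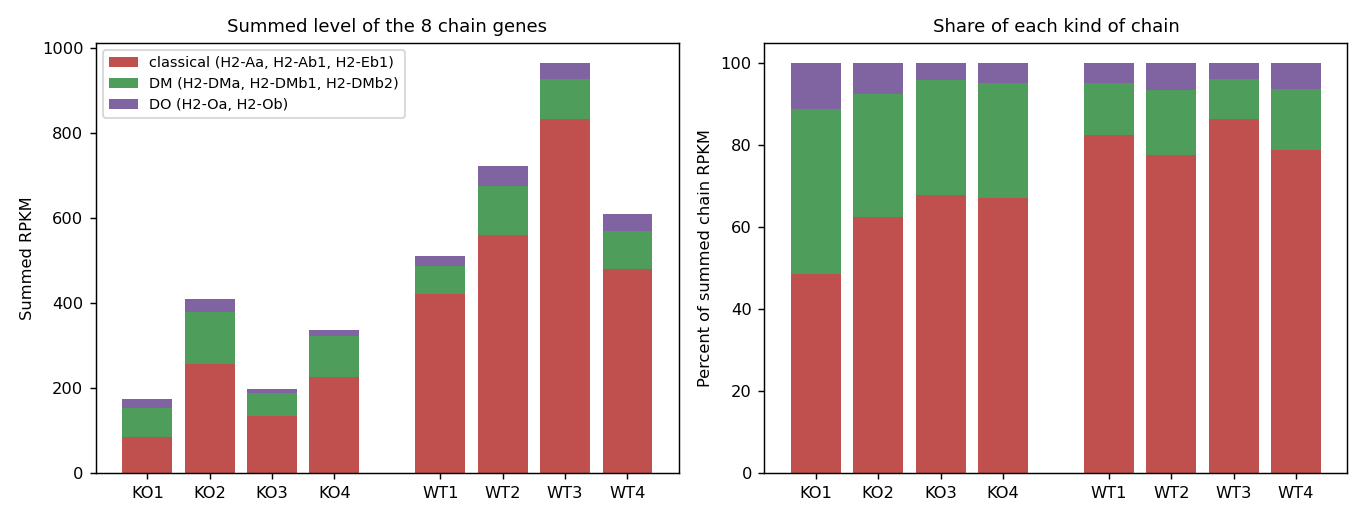
Summed RPKM of the classical, DM and DO chain genes in each library (left) and the same as a percent of their total (right), KO libraries before WT. DM chains hold 28.0% to 40.1% of the total in KO and 9.69% to 15.8% in WT.

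Other genes of the pathway were grouped in lists, each of which is counted whole; the genes named from a list are those of smallest p and of highest level, with a few added after their values were seen. The class II promoter factors are the RFX subunits, the NF-Y subunits, CREB and its coactivators, with Nlrc5, the class I counterpart of CIITA. Among them 6 of 11 tested genes had positive and 5 negative log2 differences, 0 passed the limma threshold, and the median was 0.11, beside -0.14 for all genes tested. Rfx5, which binds the X box, was at 7.53 to 16.1 RPKM in KO and 9.10 to 11.6 RPKM in WT, and Nfya, an NF-Y subunit that binds the Y box, averaged 55.8 ± 14.3 RPKM in KO and 46.9 ± 11.3 RPKM in WT (SD, n = 4). Of the other NF-Y subunits, Nfyb averaged 22.5 ± 4.80 RPKM in KO and 23.5 ± 3.83 RPKM in WT. Nfyc averaged 24.5 ± 6.82 RPKM in KO and 16.5 ± 9.999 RPKM in WT. Ep300, an acetyltransferase that acts as a coactivator, averaged 11.5 ± 2.90 RPKM in KO and 16.0 ± 2.73 RPKM in WT. Nlrc5 had 8.23, 8.82, 9.43 and 11.4 RPKM in KO1 to KO4, against 14.7, 23.6, 14.0 and 12.9 RPKM in WT1 to WT4. Its KO values all lay below its WT values (log2 difference -0.70 ± 0.29, limma adjusted p = 0.645).

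Genes known to act upstream of Ciita, among them interferon-γ signalling genes and the factors of its myeloid promoter, were also listed. Of these, 6 of 11 tested genes had positive and 5 negative log2 differences, 0 passed the limma threshold, and the median was 0.15. Irf1, an interferon-induced activator of Ciita, averaged 15.8 ± 4.45 RPKM in KO and 27.8 ± 7.58 RPKM in WT (log2 difference -0.79 ± 0.30, limma adjusted p = 0.634). Irf8, a factor of dendritic and monocytic cells, was higher in KO, at 31.9, 42.0, 34.9 and 39.4 RPKM in KO1 to KO4, against 11.1, 9.54, 28.9 and 22.0 RPKM in WT1 to WT4. The groups did not overlap in Irf8 (log2 difference 1.14 ± 0.34, limma adjusted p = 0.515). Spi1, which encodes PU.1, averaged 59.0 ± 34.2 RPKM in KO and 42.4 ± 19.9 RPKM in WT. Jak1, a kinase of the interferon receptors, was at 13.8 to 48.3 RPKM in KO and 50.4 to 56.7 RPKM in WT, and Ifngr1, the ligand-binding chain of the interferon-γ receptor, at 89.5 to 162 RPKM in KO and 82.8 to 101 RPKM in WT.

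Among genes that process antigen or turn class II over, 8 of 10 tested genes had positive and 2 negative log2 differences, 0 passed the limma threshold, and the median was 0.10. Ctss, the protease that trims the invariant chain, was at 0.904 to 29.5 RPKM in KO and 15.7 to 29.7 RPKM in WT. Ctsd, another lysosomal protease, averaged 172 ± 30.8 RPKM in KO and 139 ± 32.6 RPKM in WT, and Cst3, a protease inhibitor, 242 ± 38.0 RPKM in KO and 237 ± 42.6 RPKM in WT. Ifi30, a lysosomal thiol reductase, averaged 25.3 ± 17.5 RPKM in KO and 8.83 ± 6.03 RPKM in WT (limma adjusted p = 0.665), and Mif, a ligand of the CD74 protein, 360.2 ± 204 RPKM in KO and 284 ± 38.8 RPKM in WT. Among neighbours of the chain genes in the class II region, 3 of 8 tested genes had positive and 5 negative log2 differences, 0 passed the limma threshold, and the median was -0.092. Tap1 and Tap2 form the peptide transporter of class I presentation; Tap1 averaged 79.2 ± 22.8 RPKM in KO and 67.4 ± 5.44 RPKM in WT, and Tap2 134 ± 24.7 RPKM in KO and 123 ± 13.9 RPKM in WT. Of the immunoproteasome subunits, Psmb8 averaged 217 ± 46.5 RPKM in KO and 222 ± 29.8 RPKM in WT, and Psmb9 48.5 ± 30.6 RPKM in KO and 54.8 ± 10.9 RPKM in WT. Rxrb, a retinoid receptor gene, averaged 24.9 ± 8.94 RPKM in KO and 27.3 ± 1.23 RPKM in WT. H2-Ea and H2-Eb2, other class II chain genes, were listed at 0 in all 8 libraries.

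Markers of dendritic cells, B cells, macrophages and monocytes, T cells and the LSK gate were looked up in the same libraries. The 12 dendritic cell markers summed to 3.81 to 38.0 RPKM in KO and 16.5 to 50.2 RPKM in WT; of 5 tested, 5 had negative log2 differences with a median of -1.20, 0 passed the limma threshold, and Cd209a and Klrd1 were listed at 0 in all libraries. The highest KO sum, 38.0 RPKM, was in KO3, where H2-Aa was lowest. Ly6d alone made up 33.7 RPKM of that sum, so the top of the KO range rests mainly on a single gene. Ly6d was at 0 to 33.7 RPKM in KO and 0 to 12.2 RPKM in WT. Batf3 and Cox6a2 did not meet the filter and were listed at 0 in all KO libraries; in WT, Batf3 had 0, 9.55, 0.624 and 0 RPKM in WT1 to WT4 and Cox6a2 9.49, 0, 0 and 0 RPKM, so that each rested mainly on 1 library. Clec9a, a receptor of cross-presenting dendritic cells, had 0, 1.19, 0 and 0 RPKM in KO1 to KO4, against 3.12, 7.01, 3.60 and 0.755 RPKM in WT1 to WT4 (log2 difference -1.73 ± 0.56, limma adjusted p = 0.584). Cadm1, an adhesion gene of the same cells, had 0.134, 0.802, 0 and 0 RPKM in KO1 to KO4, against 1.303, 2.21, 3.22 and 1.16 RPKM in WT1 to WT4. Cadm1 did not overlap between the groups, and Clec9a overlapped through KO2 and WT4. Xcr1 was at 1.53 to 4.37 RPKM in KO and 3.13 to 9.66 RPKM in WT and Itgax, which encodes CD11c, at 0 to 8.48 RPKM in KO and 3.67 to 7.93 RPKM in WT. The part of such cells in the class II levels was not tested.

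The 12 B cell markers summed to 15.0 to 21.9 RPKM in KO and 8.64 to 24.8 RPKM in WT; Cd79a, Ms4a1, Pax5 and Igll1 were listed at 0 in all 8 libraries, and Cd79b was the most abundant at 6.65 to 16.1 RPKM in KO and 4.78 to 16.3 RPKM in WT. Of 2 tested, Cd79b had a log2 difference of 0.50 ± 0.45 and Fcer2a, which encodes CD23, of -0.49 ± 0.71. The 12 macrophage and monocyte markers summed to 25.5 to 109 RPKM in KO and 16.8 to 50.8 RPKM in WT; of 7 tested, 3 had positive and 4 negative log2 differences, with a median of -0.12, and 0 passed the limma threshold. Csf1r, the receptor of macrophage colony-stimulating factor, was at 6.04 to 22.0 RPKM in KO and 0.542 to 5.79 RPKM in WT. Its KO values all lay above its WT values (log2 difference 1.68 ± 0.61, limma adjusted p = 0.627). Cx3cr1, a chemokine receptor, was at 2.50 to 13.5 RPKM in KO and 1.07 to 4.14 RPKM in WT. Ly6c2, a surface marker of monocytes, was at 0 to 67.0 RPKM in KO and 0 to 29.8 RPKM in WT, C1qc, a complement chain of macrophages, at 0 to 3.75 RPKM in KO and 1.56 to 6.45 RPKM in WT, and Marco was listed at 0 throughout. Of the 8 T cell markers in the tables, which summed to 3.89 to 24.8 RPKM in KO and 19.2 to 45.8 RPKM in WT, Cd3g was at 0 throughout, and Lck, the most abundant, averaged 9.29 ± 9.09 RPKM in KO and 27.2 ± 8.46 RPKM in WT (log2 difference -1.77 ± 0.53, limma adjusted p = 0.515). Cd8b1, the other T cell marker tested, averaged 0.523 ± 0.610 RPKM in KO and 1.004 ± 0.675 RPKM in WT, and Cd28 0.654 ± 0.896 RPKM in KO and 1.43 ± 2.45 RPKM in WT. The LSK gate markers summed to 1075 to 1399 RPKM in KO and 1192 to 1330.0 RPKM in WT. Of 10 tested, 2 had positive and 8 negative log2 differences, with a median of -0.32, and 0 passed the limma threshold. Ly6e, which holds the largest share of the sum, averaged 589 ± 124 RPKM in KO and 499 ± 62.2 RPKM in WT, and Cd34 232 ± 44.4 RPKM in KO and 259 ± 26.1 RPKM in WT. Flt3, the receptor of multipotent and lymphoid-primed progenitors, had 31.4, 42.5, 54.0 and 52.1 RPKM in KO1 to KO4, against 89.2, 85.5, 78.3 and 59.3 RPKM in WT1 to WT4, without overlap (log2 difference -0.80 ± 0.23, limma adjusted p = 0.507). Slamf1, which encodes CD150, was at 0 to 3.30 RPKM in KO and 0 to 8.38 RPKM in WT. Procr, a stem cell marker, was at 5.40 to 14.6 RPKM in KO and 14.2 to 28.3 RPKM in WT. The part of these markers in the class II levels was not tested.

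The mean pattern of H2-Aa, H2-Ab1, H2-Eb1 and Cd74 was compared with 8644 other genes of at least 5 RPKM on average, by the root mean square difference between log2(RPKM + 1) values centred on each gene's mean over the 8 libraries. The closest was Erdr1, with a difference of 0.404 log2 units, at 33.9, 77.5, 41.9 and 75.4 RPKM in KO1 to KO4, against 136, 181, 213 and 176 RPKM in WT1 to WT4. Others near it were Gm3488 and Gm3317, which hold the same values, Rnase6, a secreted ribonuclease, and Ckb, a creatine kinase, at 0.513 to 0.543. The median over all genes compared was 1.34. Of the genes that make up the pattern, H2-Aa lay at 0.361, Cd74 at 0.693, H2-Ab1 at 0.709 and H2-Eb1 at 1.02. Of the others, Ciita lay at 0.703, H2-DMa at 0.945, H2-Ob at 0.978, H2-Oa at 1.51, H2-DMb1 at 1.66 and H2-DMb2 at 2.06. H2-DMa and H2-Ob thus lay closer to the pattern than H2-Eb1, so the measure does not part the classical chains from the DM and DO chains. The likeness includes the difference between genotypes and describes these 8 libraries.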

How the data were processed

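RNA of LSK cells was sequenced in 8 libraries, 4 KO and 4 WT, grouped by their titles and genotype labels. The deposited values are RPKM made by the authors, 1 per Entrez gene; the unit is inferred from the values, whose products with transcript length have nearly the same sum in every library. The submitters' processing notes name TopHat, edgeR and the build mm9, and neither the counting tool and annotation nor versions or strand use are given in the sources used here. Of 24112 gene IDs, 24029 (99.7%) matched a symbol in a GRCm38.p6 table, which served for names, while promoter windows carry that table's coordinates and not those of mm9. Depth was estimated from the spacing of low values (0.2 RPKM at most) in genes that have 1 transcript and is approximate; whole reads were not recovered, no count test was run, and no counting interval is given. No gene had the same value above 0 in 2 libraries of a group.

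Values were analysed as log2(RPKM + 1) with limma 3.58.1 in R 4.3.3 (all 8 libraries, genotype, eBayes with trend and robust variance), in genes reaching 1 RPKM in 4 or more libraries, with Benjamini-Hochberg adjustment over all 11276 genes and a threshold of 0.05. The fit and the permutation were tested on simulated data. 2-sided exact permutations (Python 3.11.15, NumPy 2.4.6) used the difference of group means. Levels are mean ± SD. Genes named were the 10 class II genes, Traf6, in each list up to 3 of smallest p and the 2 of highest level, and the 6 most alike in pattern, of which 1 is not reported here; Kit, Ly6a, Rfx5, Brd2, Batf3, Cox6a2 and list markers at 0 were added after their values were seen. The class II genes, lists and tests were chosen with earlier results of these data known. Alternatives were other filters, a pseudocount of 0.1, quantile normalization, a lane term, lane 4 by itself, a block for the replicate number, library weights and leaving out each library.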

Additional observations from a re-analysis of the deposited data

Results flagged for a closer look

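In groups of 4 libraries, a library was singled out where its distance to the nearest other value passed Dixon's critical value at 95%, as a share of the range of its group. Of 32 groups examined (10 genes and 6 pairs of chains, each in KO and in WT), 5 held such a library. The critical value is set to be passed in about 1 in 20 independent groups of normally distributed values. Here the pairs reuse the values of the genes, and some groups hold values listed at 0. The count is therefore a description and cannot show an excess.

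H2-Ab1 was at 55.7 RPKM in KO1, where the other KO libraries lay between 119.9 and 128 RPKM. H2-Oa was at 1.16 RPKM in WT1, against 23.7 to 26.7 RPKM in the other WT libraries. Through the same value, H2-DMa minus H2-Oa stood at 4.44 on the log2 scale in WT1, far above WT2 to WT4. Without WT1, H2-Oa had no overlap between the genotypes, and its log2 difference was -1.79 (limma adjusted p = 0.889). Ciita was at 0.754 RPKM in KO2, above the 0.129 RPKM of KO1 and the 0 of KO3 and KO4. H2-Ab1 minus H2-DMb1 stood at 4.60 in KO4, where H2-DMb1 was at 4.18 RPKM.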

How the results depend on the processing

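Under the 16 alternatives of the limma fit, 0 class II genes passed an adjusted p of 0.05 in any, and the 3 classical chains, H2-Ob and Cd74 were lower in KO in all of them, with log2 differences for H2-Aa of -3.08 to -1.69, for H2-Ab1 of -1.45 to -0.90, for H2-Eb1 of -4.05 to -2.11, for H2-Ob of -1.26 to -0.82 and for Cd74 of -2.06 to -1.30. The count of all genes called, 0 in the reported fit, was 2 in lane 4 alone, 164 with library weights and 0 to 2 when each library was left out. The smallest adjusted p of any class II gene was 0.0714, of H2-Ab1. Over libraries left out in turn, 6 to 7 class II genes were without overlap and lower in KO, where 3.92% to 5.87% of all genes above 0 were. Signs turned for H2-DMa with library weights (0.033) and without KO3 (0.034); for H2-DMb1 without KO2 (-0.044); for H2-DMb2 with quantile normalization (0.39), lane as a covariate or lane 4 alone (0.77), library weights (1.26), without KO4 (0.89) and without WT2 (0.41); and for H2-Oa with lane as a covariate or lane 4 alone (0.36), library weights (0.40) and without KO3 (0.076). H2-DMa minus H2-Oa turned with quantile normalization (-0.085), in lane 4 alone (-0.52) and without KO3 (-0.041; -0.041 to 1.11 over libraries left out), and H2-Ab1 minus H2-Ob without KO1 (0.11), WT3 (0.23) or WT4 (0.018; -0.43 to 0.23). Over libraries left out in turn, H2-DMb1 ranged to 0.74, H2-DMb2 to -0.54, H2-DMa to -0.82 and H2-Oa to -1.79 at the other end. The cause of these turns was not tested. The other 4 pairs of chains kept their sign in the 12 alternatives of each, though H2-Aa minus H2-Oa ranged from -2.62 to -0.92.

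Whether library numbers pair the samples is not stated in the sources used here. Same-numbered KO and WT libraries deviated from their group means with correlations of -0.08 to -0.038, which cannot settle it. With the replicate number as a block, limma called 0 genes and 0 class II genes, and sign flips of the 4 numbered pairs, which cannot give p under 0.125, left H2-Aa minus H2-DMa at -2.11. Depth is an estimate, and values listed at 0 in KO3 and KO4 limit what H2-Eb1, H2-Oa, H2-DMb2 and Ciita can show.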
